A study of Mus musculus with 17 samples.

Results

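The transcripts of 10 oocyte genes were followed in single mouse 2-cell embryos: the growth factors Gdf9 and Bmp15, the zona pellucida genes Zp1, Zp2 and Zp3, the transcription regulators Nobox, Figla, Lhx8 and Sohlh1, and Oosp1. They were taken as every row of the expression table whose platform annotation named one of these symbols. Each gene had 1 row (probe set), so the 10 genes made up 10 of the 21780 rows that carry exactly 1 gene symbol, or 10 of 19935 genes. The embryos came from wild-type males and untreated wild-type females, both of strain 129SVE (129S6/SvEvTac, Taconic), mated naturally. For 6 weeks the males received PJ34, which blocks the enzymes PARP1 and PARP2 that make poly(ADP-ribose), in daily injections, and control males received saline, although 1 label field calls the control fathers untreated. The control group held 7 embryos, 1 of sire A and 3 each of sires B and D. The PJ34 group held 10, of which sires MTM11 and MTM13 gave 4 each and sire MTM14 gave 2. Each array measured the RNA of 1 whole embryo, which is named by its sire and number. Embryos of 1 sire share that sire, and p-values over embryos measure the spread between embryos only. Neither the age of the males nor the mother of each embryo was stated in the labels.

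These genes are best known from the ovary, where the growing oocyte transcribes them. GDF9 and BMP15 are secreted by the oocyte and signal to the surrounding granulosa cells, the ZP glycoproteins form the egg coat, and NOBOX, FIGLA, LHX8 and SOHLH1 switch on oocyte genes in young follicles. Transcripts of this kind are stored in the egg and are, as a class, degraded around fertilization and the 2-cell stage, when the embryo's own genome becomes active. The question for these rows was which of them still gave signal at this stage, how widely single embryos differed, and whether embryos of PJ34-treated sires differed from control embryos. Eggs and earlier stages were not analysed here, so the levels describe what was present at the 2-cell stage and not how much had been lost.

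Promoter windows are shown for 4 of the genes, as FIGLA is known to act on zona promoters through E-boxes and NOBOX is known to bind a short homeobox motif. The E-box was searched as CANNTG, which reads the same on both strands, and the homeobox motif as TAATTG on either strand or as its close form TAATTA. Of the 10 genes, 7 had a window in RefSeq (GRCm38.p6), which holds the 250 bases before the gene start. Capitals mark matches to these motifs.
Zp3 (chr5:135979855-135980104, + strand): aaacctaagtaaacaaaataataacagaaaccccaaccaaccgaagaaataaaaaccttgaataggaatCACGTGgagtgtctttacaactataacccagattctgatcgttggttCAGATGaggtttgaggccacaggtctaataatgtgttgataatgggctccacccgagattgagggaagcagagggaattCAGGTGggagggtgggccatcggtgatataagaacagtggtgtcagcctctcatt
Oosp1 (chr19:11691052-11691301, - strand): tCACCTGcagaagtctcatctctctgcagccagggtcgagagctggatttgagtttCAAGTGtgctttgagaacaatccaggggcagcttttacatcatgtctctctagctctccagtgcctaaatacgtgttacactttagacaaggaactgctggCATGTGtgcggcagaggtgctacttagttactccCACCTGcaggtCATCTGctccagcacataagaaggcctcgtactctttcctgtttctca
Bmp15 (chrX:6320725-6320974, - strand): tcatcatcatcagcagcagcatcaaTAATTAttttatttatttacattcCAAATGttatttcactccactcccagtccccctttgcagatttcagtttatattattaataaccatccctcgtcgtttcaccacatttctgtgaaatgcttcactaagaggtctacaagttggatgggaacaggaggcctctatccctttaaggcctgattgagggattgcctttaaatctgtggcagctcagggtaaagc
Nobox (chr6:43309555-43309804, - strand): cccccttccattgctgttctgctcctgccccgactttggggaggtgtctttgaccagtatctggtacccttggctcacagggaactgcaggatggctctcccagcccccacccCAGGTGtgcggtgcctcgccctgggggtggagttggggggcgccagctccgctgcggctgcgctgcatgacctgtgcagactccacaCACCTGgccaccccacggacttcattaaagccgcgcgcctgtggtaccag

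The Zp3 window held 3 E-boxes, the nearest beginning 55 bases before the start, and the Oosp1 window held 5. Sohlh1 also had 5, Nobox and Figla had 2 each, Bmp15 had 1 and Lhx8 had 0. Over all 32851 windows of the same length, 66.2% held at least 1 E-box, 12.2% held 3 or more and 1.15% held 5 or more. The Bmp15 window was the only one of the 7 with TAATTA, which 4.84% of all windows held, and TAATTG, in 7.17% of all windows, was in none of the 7. These matches describe letters in the window and do not show that a factor was bound.

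Of the 10 transcripts, 7 gave signal above that of silent genes in every embryo. Values were log2 intensities made by RMA (robust multichip average: background correction, quantile normalization and summarization of probes), so a difference of 1 is a doubling. As a yardstick for a row without signal, the 99th percentile of the control means of 1035 olfactory receptor rows was used, which was 6.85, and 34.3% of all rows lay above it. Of the 10 oocyte rows, 8 had a control mean above that level. Gdf9, Bmp15, Zp1, Zp2, Zp3, Lhx8 and Oosp1 were above it in all 17 embryos. Nobox was above it in 4 of 7 control embryos and in 1 of 10 PJ34 embryos, Sohlh1 in 0 control embryos and 1 PJ34 embryo, and Figla in none of the 17.

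The rows of Oosp1 and Bmp15 were among the brightest on the array. In control embryos the mean of Oosp1, an oocyte secreted protein, was 12.15 ± 0.06 (SD, n = 7), brighter than 99.5% of rows, and that of Bmp15 was 11.70 ± 0.21, brighter than 98.5%. Gdf9 lay at 10.81 ± 0.31 (95.6%), Zp2 at 10.26 ± 0.19 (93.5%) and Zp3 at 9.80 ± 0.33 (91.3%). Zp1 lay at 8.63 ± 0.74 (85.2%) and Lhx8 at 7.84 ± 0.30 (79.3%). Nobox had a control mean of 7.09 ± 0.87, just above the yardstick, while Sohlh1 at 6.64 ± 0.10 and Figla at 6.17 ± 0.12 were below it. How bright a row is also depends on its probes, so these ranks do not order the genes by transcript number, and a row below the yardstick is not shown to lack the transcript.

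**Figure D1:**
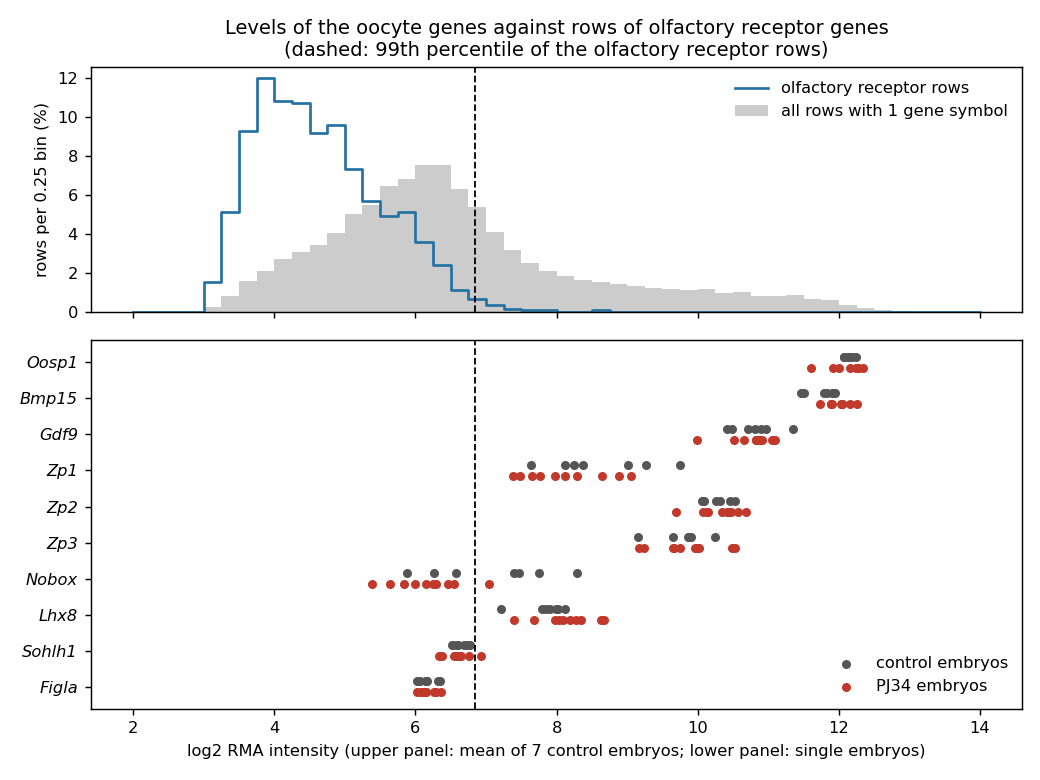
Upper panel: share of rows (%) per 0.25-wide bin of the mean log2 RMA intensity over 7 control embryos, for all rows with 1 gene symbol (grey) and 1035 olfactory receptor rows (blue line). Lower panel: log2 RMA intensity of the 10 genes in each of the 7 control (grey) and 10 PJ34 (red) embryos; 7 genes lie wholly right of the dashed line at 6.85, Nobox straddles it, and Sohlh1 and Figla lie left of it but for 1 PJ34 embryo of Sohlh1.

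Markers of the labelled stage were measured in both groups. Of the listed 2-cell genes, Zscan4c, Zscan4d, Zscan4f, Tdpoz4 and Tcstv1 had no row with a single symbol. All 5 rows of 2-cell marker genes (Usp17lb, Tcstv3, Zfp352, Eif1a and Tdpoz3) had control and PJ34 means above the yardstick, the lowest being those of Eif1a, 7.42 and 7.34. None passed the comparison of the groups, and 1 had an unadjusted p below 0.05, Usp17lb, at 9.86 ± 0.56 in control and 8.75 ± 1.21 in PJ34 embryos (difference -1.11, unadjusted p = 0.0304). Tcstv3 differed by -0.19 (unadjusted p = 0.300) and Zfp352 by 0.44 (unadjusted p = 0.520). The mean over the 5 rows ranged from 8.77 to 9.88 in control embryos and from 7.61 to 9.81 in PJ34 embryos. The lowest was MTM13-4, which deviated by -1.58 from the control mean.

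Markers of other cells were mostly at the level of silent rows. Of 10 rows of cumulus and granulosa cell genes, the cells that surround the egg and receive GDF9 and BMP15, 1 was above it (Amhr2, 7.26 ± 0.20 in control embryos). None passed, and 1 had an unadjusted p below 0.05, Kitl, the ligand of the KIT receptor on the oocyte, which had 4.32 ± 0.10 in control and 4.48 ± 0.11 in PJ34 embryos (difference 0.16, unadjusted p = 0.0132). Ptgs2 and Tnfaip6, genes of the expanding cumulus, differed by 0.11 and -0.10 (unadjusted p = 0.120 and 0.174). Fshr, the FSH receptor of granulosa cells, lay at 5.47 and Foxl2, a granulosa cell regulator, at 6.16. The mean over the 10 granulosa rows ranged from 5.57 to 5.71 in control embryos and from 5.57 to 5.77 in PJ34 embryos. Of 5 blastocyst rows 1 was above the yardstick (Krt8) and 0 had an unadjusted p below 0.05, with differences of 0.16 for Krt18, -0.03 for Sox17 and 0.02 for Gata3. Array medians lay between 6.12 and 6.23.

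No oocyte gene passed the comparison of PJ34 with control embryos after adjustment over all rows, which does not show that the groups were alike. With limma, 0 of the 10 rows passed an adjusted p of 0.1, against 0% of all 21780 rows. At an unadjusted p below 0.05 there were 2, Bmp15 (higher in PJ34) and Nobox (lower in PJ34), by limma and by the methods' plain analysis of variance alike. Over all rows 5.89% were below that value, 1.96% with PJ34 higher and 3.93% with PJ34 lower. In none of the 10 rows did the groups lie apart without overlap, which held for 0.0138% of all rows. Of the 10 rows, 5 had a higher mean in PJ34 embryos and 5 a lower one. Their median difference was -0.0044 on the log2 scale, beside -0.016 over all rows.

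**Figure D2:**
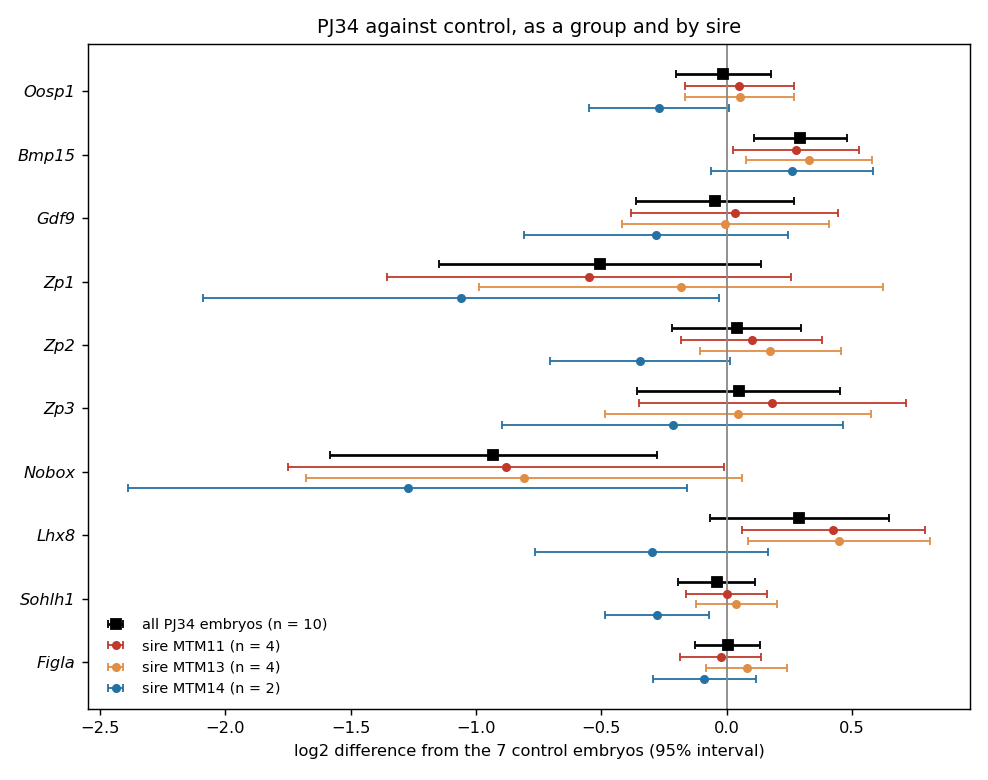
Difference in log2 RMA intensity from the 7 control embryos, with 95% intervals from limma, for all 10 PJ34 embryos (black squares) and for the embryos of sires MTM11, MTM13 and MTM14 (coloured points). Group intervals exclude 0 for Bmp15 (0.11 to 0.48) and Nobox (-1.58 to -0.28), neither of which passed after adjustment, and the MTM14 point lies lowest of the 3 sires in each gene.

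Bmp15, an X-linked gene, encodes a ligand that the oocyte sends to its cumulus cells. Its log2 intensity ranged from 11.46 to 11.95 over the 7 control embryos (median 11.79) and from 11.73 to 12.25 over the 10 PJ34 embryos (median 12.03). The 3 control embryos A-2, B-1 and D-1 sat close together between 11.46 and 11.50, lower than any PJ34 embryo, while the other control embryos overlapped the lower part of the PJ34 range. All 10 PJ34 embryos were above the control mean and 6 were above the highest control embryo. The difference was 0.29 (95% interval 0.11 to 0.48), 1.23-fold, with an unadjusted p of 0.00386, the 92nd smallest of all rows, and an adjusted p of 0.814 by limma. By sire, the difference from the control embryos was 0.28 in MTM11, 0.33 in MTM13 and 0.26 in MTM14. Leaving out any 1 embryo gave differences from 0.25 to 0.33.

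Gdf9 encodes the partner ligand of BMP15. Its values ran from 10.41 to 11.34 in control embryos (median 10.82) and from 9.995 to 11.09 in PJ34 embryos (median 10.83), and the ranges overlapped but for A-2 at the top and MTM14-1 at the bottom. The difference was -0.05 (-0.36 to 0.27, adjusted p = 0.976), and its sign turned when A-2 was left out (0.04). The highest value belonged to the only embryo of sire A and the lowest to MTM14-1, whose sib MTM14-2 stood at 11.05.

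Receptors and Smad mediators of this pathway in the embryo were looked at beside the ligands. None of 10 such rows passed after adjustment and none had an unadjusted p below 0.05, with 4 higher and 6 lower in PJ34 embryos and a median difference of -0.09. In 7 the control mean was above the yardstick. Bmpr2, the type II receptor for both ligands, had a control mean of 10.81 ± 0.20 and a PJ34 mean of 10.94 ± 0.16 (difference 0.13, unadjusted p = 0.149). Tgfbr1, the type I receptor used by GDF9, had the smallest p of the list (6.37 ± 0.27 in control embryos and 6.92 ± 0.69 in PJ34 embryos, difference 0.55, unadjusted p = 0.0535), and its control mean was below the yardstick. Acvr1b, a type I receptor for activin, differed by 0.19 (unadjusted p = 0.0962) at a control mean of 5.66.

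The spread between embryos was 0.26 for Zp2, 0.41 for Zp3 and 0.65 for Zp1 (within-group SD, log2 scale). Zp2 encodes the glycoprotein to which sperm bind. It stayed between 10.06 and 10.53 in control embryos (median 10.26) and between 9.69 and 10.68 in PJ34 embryos (median 10.38). The lowest embryo, MTM14-1, stood below all others. Of the other embryos, the lowest was the control D-1, and 2 PJ34 embryos were above the highest control embryo. The difference was 0.04 (-0.22 to 0.30, adjusted p = 0.974). Zp3, whose product pairs with ZP2 in the filaments of the coat, ran from 9.16 to 10.24 in control embryos (median 9.88) and from 9.17 to 10.52 in PJ34 embryos (median 9.85). The embryos MTM11-1 and MTM11-3, at 10.52 and 10.49, were above every control embryo, and the sib MTM11-2 at 9.24 was among the lowest. The difference was 0.05 (-0.36 to 0.45, adjusted p = 0.9795).

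Zp1 encodes the glycoprotein that cross-links the filaments, and it was the least even of the zona rows. Control embryos ran from 7.63 (D-2) through a median of 8.37 to 9.75 (B-2), and PJ34 embryos from 7.38 (MTM11-4) through a median of 8.05 to 9.06 (MTM11-3). The span over the 17 embryos was 2.37, or 5.16-fold, and most of it was found among embryos of 1 father: 1.499 within sire B, 1.64 within sire D and 1.68 within sire MTM11. Its within-group SD of 0.65 was larger than that of 89.4% of rows, where the median row had 0.19 and the median row above the yardstick 0.38. The PJ34 mean of 8.12 ± 0.59 was lower than the control mean by 0.50 (95% interval -1.15 to 0.14, unadjusted p = 0.116, adjusted p = 0.880). Without B-2 the difference was -0.32.

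Among partners of the zona and egg surface, Cd9, an egg membrane protein needed for fusion with sperm, had a difference of 0.25 (unadjusted p = 0.409), and Izumo1r, the egg receptor for sperm IZUMO1, had -0.09 (unadjusted p = 0.604). Both had control means above the yardstick, 7.42 ± 0.54 and 7.36 ± 0.52. The rows of Astl, the protease that cleaves ZP2 after fertilization, of Zp4, a pseudogene in mice, and of Zp3r, a sperm protein, lay below it at 4.74, 4.76 and 4.17. Of these 5 rows 0 passed in either direction, and 0 had an unadjusted p below 0.05.

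**Figure D3:**
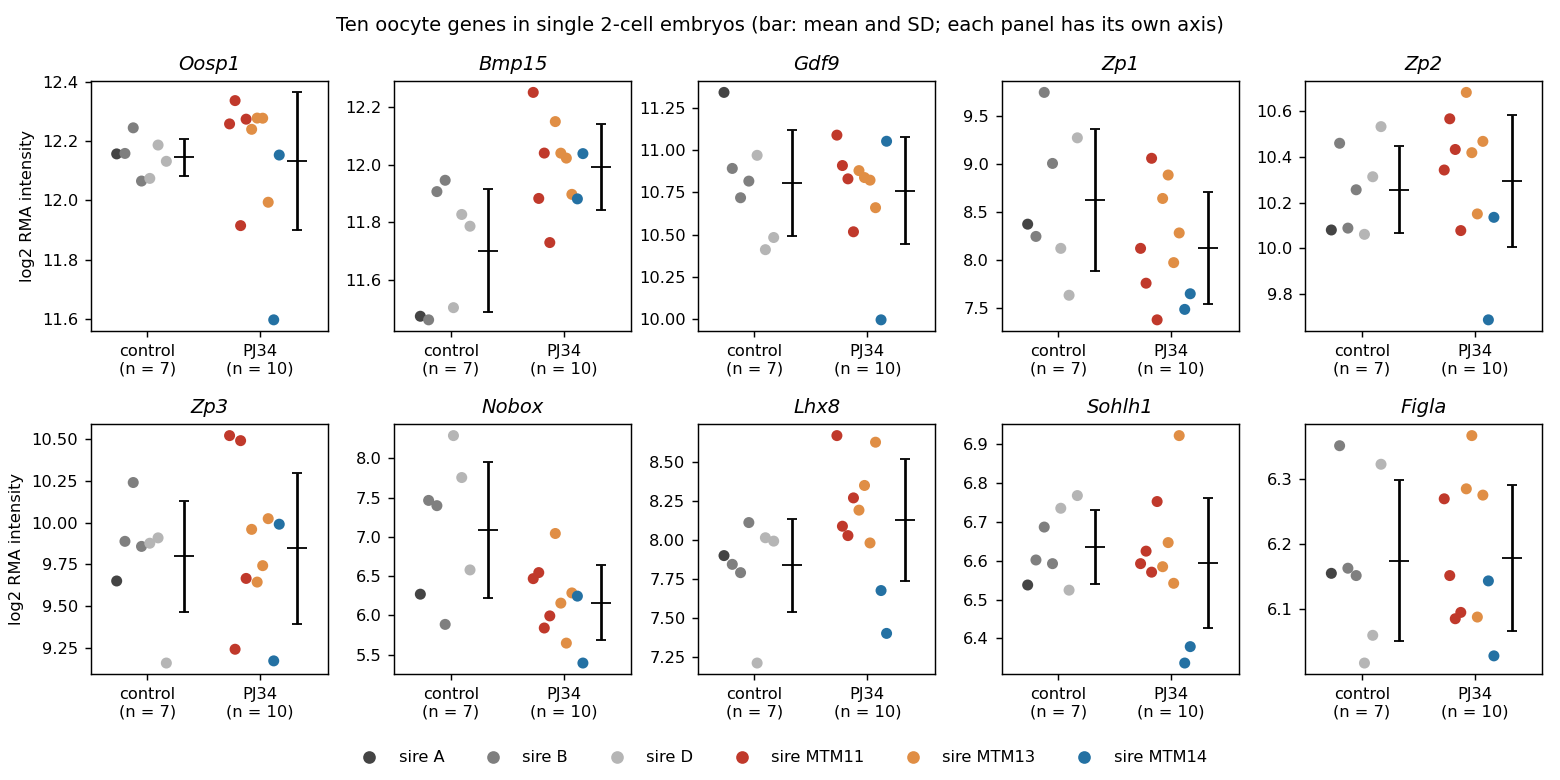
Log2 RMA intensity of the 10 genes in single 2-cell embryos, 1 point per embryo, coloured by sire, with the mean and SD of each group; each panel has its own axis. Control and PJ34 embryos overlap in every panel; all 10 PJ34 embryos lie above the control mean of Bmp15 and below that of Nobox, and MTM14-1 is the lowest point for Oosp1, Gdf9, Zp2 and Sohlh1.

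Nobox, a homeobox regulator needed for early follicle growth, varied most between embryos among the 10 genes. In control embryos it ran from 5.88 (B-3) through a median of 7.40 to 8.29 (D-1), and in PJ34 embryos from 5.39 (MTM14-2) through a median of 6.1996 to 7.04 (MTM13-1). The span over the 17 embryos was 2.90. All 10 PJ34 embryos were below the control mean and 3 were below the lowest control embryo, while 3 control embryos (A-2, B-3 and D-3) lay inside the PJ34 range. The 4 control embryos at 7.40 or above exceeded every PJ34 embryo, and they came from sires B and D. The PJ34 mean of 6.16 ± 0.47 was lower by 0.93 (95% interval -1.58 to -0.28), with an unadjusted p of 0.00786 and an adjusted p of 0.814. No fold is given, as the PJ34 mean was below the yardstick.

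By sire, the Nobox difference was -0.88 in MTM11, -0.81 in MTM13 and -1.27 in MTM14. Control sires spread as well, with 6.27 in the A embryo and means of 6.91 for B and 7.54 for D, beside 6.21, 6.28 and 5.82 for MTM11, MTM13 and MTM14. The difference was -1.13 without B-3 and -0.59 without the 3 embryos of sire D, where the unadjusted p was 0.0838. Over means of sires it was -0.80 (unadjusted p = 0.052). As 9 of the 10 PJ34 values and 3 of the 7 control values lay below the yardstick for silent rows, much of the Nobox difference was measured where signal cannot be told from none.

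Lhx8, a LIM-homeobox regulator of oocyte genes, ran from 7.21 (D-1) through a median of 7.90 to 8.11 in control embryos and from 7.40 (MTM14-2) through a median of 8.14 to 8.67 (MTM11-1) in PJ34 embryos. In all, 5 PJ34 embryos were above the highest control embryo. The difference was 0.29 (95% interval -0.07 to 0.65, unadjusted p = 0.103, adjusted p = 0.872). The families did not lie together: MTM11 embryos had 8.67, 8.09, 8.03 and 8.27, and MTM13 embryos had 8.19, 8.35, 7.98 and 8.63. The MTM14 embryos had 7.68 and 7.40, below every other embryo but D-1. All 8 embryos of the first 2 sires were above the control mean of 7.84 and both of MTM14 were below it.

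The differences of Lhx8 from control were 0.43 for MTM11, 0.45 for MTM13 and -0.30 for MTM14, with unadjusted p of 0.0246, 0.0187 and 0.190. The F test for a difference among MTM11, MTM13 and MTM14 gave an unadjusted p of 0.0131 and an adjusted p of 0.916, and 0.0138% of all rows passed that test. Sohlh1 and Zp2 also had unadjusted p below 0.05 in it (0.0235 and 0.0319), where 4.91% of all rows did. Without sire MTM14 the Lhx8 difference was 0.44, and without D-1 it was 0.19.

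Sohlh1, a basic helix-loop-helix regulator of the earliest follicles, stayed within 6.52 to 6.77 in control embryos (median 6.60) and within 6.34 to 6.92 in PJ34 embryos (median 6.59). The 2 lowest values, 6.34 and 6.38, were the 2 embryos of MTM14, and the highest was MTM13-4. Its difference was -0.04 (adjusted p = 0.955) over all PJ34 embryos and -0.28 (95% interval -0.49 to -0.07) in MTM14. The MTM14 difference had the smallest adjusted p of any of the 10 genes in any family (unadjusted p = 0.0123, adjusted p = 0.723). All control and MTM14 values of Sohlh1 lay below the yardstick, where signal cannot be told from none. Figla, the E-box factor of the zona genes, was nearly flat, from 6.02 to 6.35 in control embryos (median 6.16) and from 6.03 to 6.37 in PJ34 embryos (median 6.15), with a difference of 0.0044 (-0.12 to 0.13). Its within-group SD was larger than that of only 15.4% of rows, and both groups lay below the yardstick.

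Per family, 0 of the 10 rows passed in MTM11, MTM13 or MTM14, where 0.00459%, 0% and 0.0551% of all rows passed. Bmp15, Lhx8 and Nobox had unadjusted p below 0.05 in MTM11, Bmp15 and Lhx8 in MTM13, and Zp1, Nobox and Sohlh1 in MTM14, against 5.25%, 4.96% and 5.53% of all rows. The 3 comparisons share the same 7 control embryos. Zp1 differed from control by -1.06 in MTM14 (95% interval -2.09 to -0.03), by -0.55 in MTM11 and by -0.18 in MTM13. In all 10 genes the mean of the MTM14 embryos was the lowest of the 3 PJ34 sires, as it was in 44.4% of all rows and in 39.7% of rows above the yardstick. With MTM14-1 left out, a check added after the data were seen, MTM14-2 alone was lowest in 7 of the 10 genes and in 42.7% of all rows. That family has 2 embryos, and its differences were -0.28 for Gdf9, -0.35 for Zp2 and -0.27 for Oosp1.

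Other regulators of the oocyte programme were also measured. Of 7 such rows 0 passed and 0 had an unadjusted p below 0.05, with a median difference of 0.05. Of these, 5 were above the yardstick, among them Pou5f1, the pluripotency factor supplied by the egg, at 11.74 ± 0.11 in control and 11.69 ± 0.46 in PJ34 embryos. Foxo3, which restrains follicle activation, differed by 0.18 (unadjusted p = 0.0648), Tbpl2, the oocyte form of TATA-binding protein, by 0.13 (unadjusted p = 0.411) at a control mean of 3.72, and Lin28a, an RNA-binding protein, by 0.05 (unadjusted p = 0.641). Obox1, Obox2 and Obox3, a family of close homeobox copies, had no row with a single symbol.

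Other transcripts stored in the egg were measured in the same way. Of 26 rows for 24 genes, 24 were above the yardstick, 0 passed, and 1 in each direction had an unadjusted p below 0.05. These were Khdc3, a member of the subcortical maternal complex, with -0.72 (unadjusted p = 0.00245) and Btg4, an adaptor for the removal of poly(A) tails from maternal mRNA, with 0.27 (unadjusted p = 0.0107). Mos, the meiotic kinase that holds the egg in arrest, differed by 0.42 (unadjusted p = 0.073) at a control mean of 5.88. The median difference of the list was -0.013, with 11 rows higher and 15 lower.

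Spread between embryos was compared by limma on each embryo's absolute deviation from its group mean. None of the 10 genes passed, where 0.0275% of all rows did. There were 2 with an unadjusted p below 0.05, Nobox and Oosp1, against 8.69% of all rows. Nobox had an SD of 0.47 in PJ34 and 0.87 in control embryos (unadjusted p = 0.0222, adjusted p = 0.510), and without B-3 that p was 0.160. As 9 of the 10 PJ34 values of Nobox, but 3 of the 7 control values, lay below the yardstick, this comparison does not bear on the spread of the transcript. Oosp1 had the larger SD in PJ34 embryos.

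Oosp1 was the steadiest of the 10 genes in control embryos. The 7 values lay between 12.07 and 12.24 (median 12.16, SD 0.06), while PJ34 embryos ran from 11.60 (MTM14-1) through a median of 12.25 to 12.34 (SD 0.23, unadjusted p = 0.0253, adjusted p = 0.512). Of the PJ34 embryos, 3 were below the lowest control embryo and 5 were above the highest, so 8 of 10 fell outside the narrow control range. With MTM14-1 left out the SD was 0.14, and with deviations taken from the group median the unadjusted p was 0.194. The means differed by -0.01 (95% interval -0.20 to 0.18, adjusted p = 0.989).

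Each embryo was also set against the control embryos on its own. None of the 10 genes passed in any of the 17 embryos, where 0.581% of all tests passed in PJ34 embryos (0.289% to 0.918% per embryo) and 0.397% in control embryos set against the other 6 (0.289% to 0.487%). The smallest adjusted p was that of Oosp1 in MTM14-1 (-0.55, adjusted p = 0.116), followed by Lhx8 in the control embryo D-1 (-0.73, adjusted p = 0.206).

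The embryo MTM14-1 was low across the set. It had the lowest value of all 17 embryos in 4 of the 10 genes (Gdf9, Zp2, Sohlh1 and Oosp1), where it was lowest in 9.49% of all rows. Of its 10 values, 9 were below the control mean, all but Bmp15, and its mean deviation over the 10 genes was -0.49, ahead of -0.28 for its sib MTM14-2 and -0.23 for MTM11-4. Over all rows the median deviation of MTM14-1 was -0.058, so more rows lay below the control mean than above it. That median was lower still in MTM11-1 (-0.070), the control A-2 (-0.067) and MTM13-1 (-0.063). Over rows above the yardstick the median deviation of MTM14-1 was -0.071, the lowest of the 17 embryos. In the same embryo the 26 rows of stored egg transcripts deviated by 0.02 on average, the 7 other regulators by -0.18 and the 5 markers of the 2-cell stage by -0.65. The same markers deviated by -0.35 in MTM14-2, and by -1.58 in MTM13-4, where the 10 genes deviated by 0.04. Whether marker and oocyte gene levels are linked was not tested. The array median of MTM14-1, 6.14, was within the range of the others. MTM11-1 stood at the other end, with the highest value in 3 genes (Bmp15, Zp3 and Lhx8) and a mean deviation of 0.15.

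**Figure D4:**
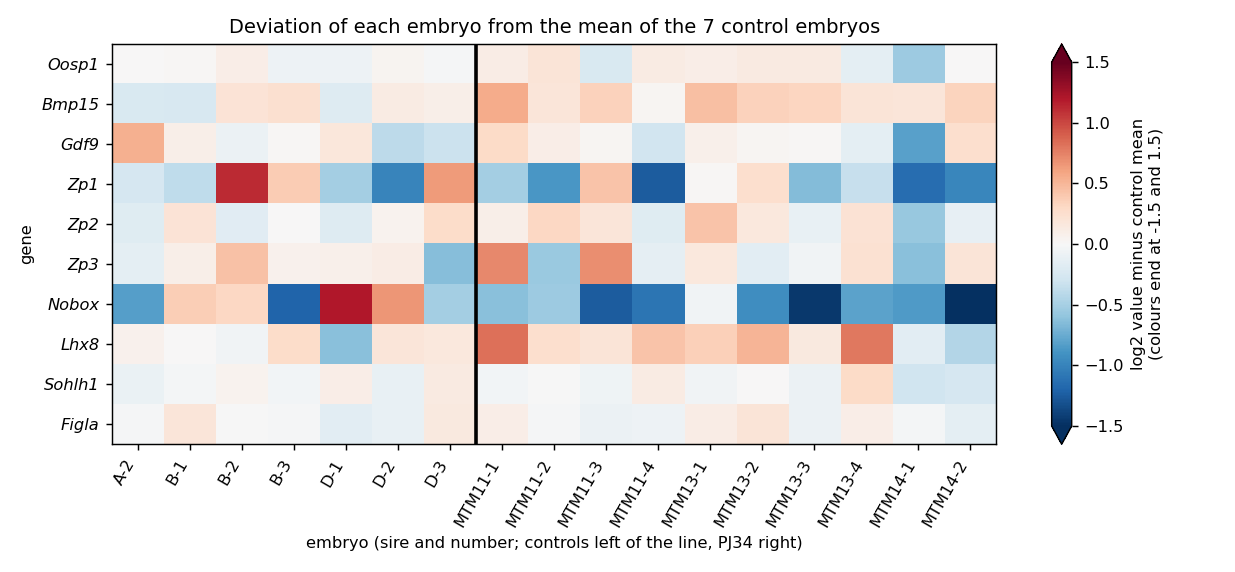
Deviation of each embryo (columns, controls left of the line and PJ34 right) from the mean of the 7 control embryos in log2 RMA intensity (colour), for the 10 genes (rows). All 10 PJ34 embryos deviate downwards (blue) for Nobox and upwards (red) for Bmp15, and MTM14-1 deviates downwards in 9 of 10 genes. Some of these cells are nearly colourless: Nobox in MTM13-1 (-0.05), Bmp15 in MTM11-4 (0.03) and Figla in MTM14-1 (-0.03).

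The 10 transcripts moved only loosely together from embryo to embryo. After each group was centred on its mean, the 45 pairs of genes had Pearson correlations from -0.17 to 0.60 over the 17 embryos, with a median of 0.19 and 6 pairs above 0.5. The highest was between Figla and Lhx8 (r = 0.60, Spearman's rho = 0.58), then Zp2 and Figla (0.56 and 0.55) and Bmp15 and Zp1 (0.53 and 0.57). Figla was above the yardstick in none of the 17 embryos, so its pairs involve a row that cannot be told from silent ones. The value for Gdf9 and Oosp1 (0.53) fell to 0.10 when the 2 embryos farthest from the median were left out. These correlations share the arrays, their normalization and the sires.

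Among 7461 other rows above the yardstick, the row most like Oosp1 over the 17 embryos was Pou5f1 (r = 0.87, rho = 0.71), and the row most like Gdf9 was Pias1, a SUMO ligase (r = 0.89, rho = 0.86). Zp3 was closest to Cldnd1 (r = 0.85), Zp1 to Plpbp (0.81), Bmp15 to Midn (0.81), Lhx8 to Aatk (0.80), Zp2 to Rbm6 (0.78) and Nobox to Mon2 (0.77). None of the 3 closest rows of these 8 genes was another of the 10. As the highest of 7461 correlations over 17 embryos, these values are high in part through the search, and none was tested. Oosp1 and Gdf9 were both lowest in MTM14-1, and their correlations were not recomputed without it.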

How the data were processed

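Single 2-cell embryos were profiled on Affymetrix mouse gene arrays after amplification of their RNA (WT-Ovation One-Direct, NuGen). The authors deposited log2 intensity values made with RMA in Partek Genomics Suite; the sources used here give neither versions nor a genome build. Background correction and quantile normalization compress dim rows and force every array to 1 distribution, so a shift of all transcripts in an embryo is not visible. Of 28815 rows, 21780 had exactly 1 gene symbol, 1605 had several and 5430 had none in the platform annotation; symbols were updated by gene ID (21689 matched, GRCm38.p6, names only). No member symbol stood in a row with several symbols. Groups, sires and embryo numbers came from the labels.

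Values were used as deposited. Tests were two-sided limma fits (3.58.1, R 4.3.3) over the 21780 rows with Benjamini-Hochberg adjustment and a threshold of 0.1, as in the methods: 10 PJ34 against 7 control embryos, each sire against the controls with an F test over the 3 PJ34 sires, single embryos against controls with the spread of the controls, and absolute deviations scaled by group size. Intervals are at 95%. Arrays have no read depth. The number of embryos limits precision, with a median standard error of the group difference of 0.09 over all rows. For the 10 genes it ran from 0.06 (Figla) to 0.31 (Nobox). The scripts were tested on simulated data. Figures were drawn with matplotlib 3.10.9. All 10 genes are named; of each other list, the rows with the 3 smallest p, and beyond these some genes chosen after their values were seen (Fshr, Foxl2, Pou5f1, Astl, Zp3r, Amhr2, Krt8, Eif1a and Tdpoz3). The genes, lists and tests were chosen with earlier results of these data known. Of 76 genes on the lists, 10 had no row with 1 symbol. The alternatives were sire as a random block, means of sires, median-centred arrays, all rows, brighter rows only, the methods' analysis of variance, limma with trend, a replicate block, leaving out each embryo or sire, and other yardsticks for silent rows.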

Additional observations from a re-analysis of the deposited data

Results flagged for a closer look

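In 20 groups (10 genes in 7 control or 10 PJ34 embryos) the gap between an extreme embryo and its neighbour was compared with Dixon's critical value, which chance passes in about 1 in 20 groups. It was passed in 2 groups. For Gdf9, MTM14-1 at 9.995 was low among the PJ34 embryos, with a gap of 0.477 of the group's range. For Lhx8, D-1 at 7.21 was low among the control embryos, with a gap of 0.643 of the range.

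Lhx8 was also singled out because embryos of different PJ34 sires lay on opposite sides of the control mean. The mean difference was 0.43 for MTM11 and -0.30 for MTM14, and every embryo of each lay on its family's side. For MTM13 and MTM14 the values were 0.45 and -0.30. The F test over the 3 sires had an unadjusted p of 0.0131 and an adjusted p of 0.916, so the difference did not pass. MTM14 has only 2 embryos, and the control embryo D-1 was lower than either of them.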

How the results depend on the processing

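Of the 10 genes, 0 passed an adjusted p of 0.1 in any of the 31 alternatives to the group comparison, and 0 passed in the 18 alternatives to the comparison of spread. The count of genes above the level of silent rows was 8, and 9 with the 95th percentile of the olfactory receptor rows (6.29) or with vomeronasal receptor rows (6.36). The gene added by both was Sohlh1. Bmp15 kept its direction in all 31, from 0.25 to 0.35, with unadjusted p below 0.05 in each (highest 0.0276, adjusted p from 0.602 to 0.931). Nobox kept its direction in all 31, from -1.13 to -0.59, with unadjusted p below 0.05 in 29 (adjusted p from 0.602 to 0.987). Lhx8 and Zp1 also kept theirs in all 31, from 0.18 to 0.44 and from -0.72 to -0.23.

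The other 6 differences lay between -0.05 and 0.05, and some turned sign or grew. Over means of sires Gdf9 was -0.20 and Figla -0.0068. Without sire D Gdf9 was -0.18, and without sire B Zp3 was 0.20. Without sire A Gdf9 was 0.0442, without sire D Figla was -0.0264 and Zp3 -0.0639, and without MTM11 Zp3 was -0.0419. Without MTM13 Figla was -0.0455 and Zp2 -0.049, and without MTM14 Gdf9 was 0.0134, Sohlh1 0.0193 and Oosp1 0.0509. Leaving out 1 embryo at a time gave -0.111 to 0.0442 for Gdf9, -0.0027 to 0.108 for Zp2, -0.0584 to 0.123 for Zp3, -0.0218 to 0.034 for Figla and -0.0358 to 0.0461 for Oosp1. The cause of these turns was not tested. Figla had no value in the alternative with brighter rows only, as its row was left out.

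With the embryo number as a replicate block, 0 of the 10 genes passed. The sign turned for Gdf9 (0.0025) and Figla (-0.0022), and Sohlh1 was -0.10, the same sign as without the block. The numbers did not pair the embryos: the median correlation of deviations was -0.02 for 19 pairs with the same number and 0.0039 for the others. With sire as a random block (estimated correlation -0.04), 2 of all rows passed and 0 of the 10 genes.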
